A study of Mus musculus with 6 samples.

Results

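A set of 10 rows of a gene count table make up the subject here, those of the Cyp2c family members Cyp2c29, Cyp2c37, Cyp2c38, Cyp2c39, Cyp2c40, Cyp2c50, Cyp2c54, Cyp2c67, Cyp2c69 and Cyp2c70, chosen by name and followed over all 6 libraries of the study. They are 10 of 25184 genes in the table, and all 10 passed the filter on low counts that left 15105 genes for testing. The libraries are stranded mRNA sequencing of primary mouse hepatocytes kept in culture overnight, 3 from Sucnr1 fl/fl mice and 3 from Hep-Sucnr1 KO mice. In both genotypes Sucnr1, which encodes a receptor for extracellular succinate, is floxed. The Hep-Sucnr1 KO mice additionally carry 1 copy of a Cre transgene driven by the albumin promoter, the controls have none, and no Cre-only group was sequenced, so that the deletion and the Cre transgene cannot be told apart. All mice were on a chow diet, and the age of the mice behind these libraries is not given in the sources used here. RNA was extracted on 2 days, with 1 library of each genotype on day 1 (Sucnr1 fl/fl replicate 1 and Hep-Sucnr1 KO replicate 3) and 2 of each on day 2. The libraries also fall into 2 index series that nearly follow the genotype. Sucnr1 fl/fl replicates 1 and 2 are of the first series, and Sucnr1 fl/fl replicate 3 and all Hep-Sucnr1 KO libraries of the second. The labels number the samples but do not say that each is a separate mouse, and the p-values then measure only the spread between these samples.

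Cytochromes P450 of the Cyp2c family are haem enzymes of the endoplasmic reticulum that take electrons from P450 oxidoreductase (Por) and put oxygen into drugs, steroids and fatty acids. In mouse liver many of them turn arachidonic acid into epoxides or hydroxy acids, lipid messengers that the epoxide hydrolases Ephx1 and Ephx2 break down further. Several are induced by drugs through the nuclear receptors CAR (Nr1i3) and PXR (Nr1i2), several differ in level between male and female liver, and a number of them are made mainly by the hepatocytes around the central vein. The members are known for different reactions: Cyp2c29, Cyp2c38, Cyp2c39, Cyp2c50 and Cyp2c54 are arachidonic acid epoxygenases, Cyp2c37 and Cyp2c40 make mostly hydroxy acids, and Cyp2c70 forms the muricholic acids, the bile acids typical of mice and rats.

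The 10 genes lie in 1 cluster on chromosome 19 (GRCm38, the build of the counts), and the order along the chromosome is also an order of sequence. Cyp2c29 (chr19:39269405-39330713, plus strand), Cyp2c38 (chr19:39389556-39463075, minus) and Cyp2c39 (chr19:39510862-39568529, plus) come first. Cyp2c67 (chr19:39608842-39649051), Cyp2c40 (chr19:39767071-39812814) and Cyp2c69 (chr19:39842814-39886799) follow, all on the minus strand. Cyp2c37 (chr19:39992424-40012243, plus), Cyp2c54 (chr19:40037940-40073827, minus) and Cyp2c50 (chr19:40089688-40113950, plus) form the next group, and Cyp2c70 (chr19:40153353-40187333, minus) ends the row. Within these groups the coding sequences were 89.1% to 97.9% identical (9 pairs of members), and between the groups 66.1% to 83.0% (36 pairs). The most alike members were Cyp2c40 and Cyp2c69, at 97.9%.

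Stretches just upstream of several gene starts are printed, so that some members that moved together from library to library (described further on) can be compared base by base. Promoters of 9 of the 10 members were in the RefSeq table used here (GRCm38.p6); Cyp2c54 was not. Each line gives the 250 bases before the RefSeq start, 5′ to 3′ on the strand of the gene. Gene spans above are those of the Ensembl annotation, which also holds transcripts with other starts, so the RefSeq start of Cyp2c29 lies inside its span. Capitals mark CAAAGTCCA, a word bound by the liver factor HNF4A, or CAAAGTCTA, a close variant that was added to the search after the promoters had been read. The promoters of Cyp2c38, Cyp2c39 and Cyp2c69 were searched too but are not printed. That of Cyp2c38 held neither marked word.
Cyp2c29, plus strand, chr19:39286835-39287084: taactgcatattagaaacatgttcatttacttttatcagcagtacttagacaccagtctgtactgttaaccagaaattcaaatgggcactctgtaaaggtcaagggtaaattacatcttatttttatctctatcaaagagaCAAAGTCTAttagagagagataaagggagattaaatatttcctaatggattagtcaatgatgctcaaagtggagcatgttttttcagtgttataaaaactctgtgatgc
Cyp2c67, minus strand, chr19:39649043-39649292: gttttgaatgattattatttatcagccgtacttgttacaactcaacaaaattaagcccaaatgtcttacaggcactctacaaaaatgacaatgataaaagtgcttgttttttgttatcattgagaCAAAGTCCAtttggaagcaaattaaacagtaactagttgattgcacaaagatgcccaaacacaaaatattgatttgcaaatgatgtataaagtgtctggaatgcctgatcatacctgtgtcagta
Cyp2c40, minus strand, chr19:39812815-39813064: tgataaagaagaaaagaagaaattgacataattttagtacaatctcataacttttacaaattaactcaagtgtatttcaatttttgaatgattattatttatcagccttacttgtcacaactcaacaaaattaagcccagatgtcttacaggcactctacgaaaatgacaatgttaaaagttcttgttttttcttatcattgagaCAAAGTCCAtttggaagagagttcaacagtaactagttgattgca
Cyp2c37, plus strand, chr19:39992174-39992423: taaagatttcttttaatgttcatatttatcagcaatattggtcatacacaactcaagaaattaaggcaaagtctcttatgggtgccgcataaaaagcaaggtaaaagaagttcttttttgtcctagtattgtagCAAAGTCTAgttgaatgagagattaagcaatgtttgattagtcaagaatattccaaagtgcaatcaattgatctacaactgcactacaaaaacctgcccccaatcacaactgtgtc
Cyp2c50, plus strand, chr19:40089429-40089678: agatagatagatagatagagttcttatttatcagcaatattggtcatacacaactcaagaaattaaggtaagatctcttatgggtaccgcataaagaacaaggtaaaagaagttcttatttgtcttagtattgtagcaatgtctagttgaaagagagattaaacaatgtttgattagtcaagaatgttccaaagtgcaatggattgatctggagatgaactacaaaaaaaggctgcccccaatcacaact
Cyp2c70, minus strand, chr19:40187287-40187536: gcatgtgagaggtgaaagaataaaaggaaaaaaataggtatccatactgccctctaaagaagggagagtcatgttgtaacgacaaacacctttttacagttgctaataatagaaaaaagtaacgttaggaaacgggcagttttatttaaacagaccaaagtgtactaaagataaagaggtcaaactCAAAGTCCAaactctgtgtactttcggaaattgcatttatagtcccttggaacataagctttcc
CAAAGTCCA stood in 4 of the 9 member promoters on either strand, against 0.384% of 32851 promoters of the same length. It began 125 bases before the start of Cyp2c67, 45 before that of Cyp2c40, 75 before that of Cyp2c69 and 64 before that of Cyp2c70. In Cyp2c67, Cyp2c40 and Cyp2c69 nearly the same bases surround it, and their RefSeq starts lie at different points of an alike sequence. The distances, and which words fall inside a window, therefore depend on the annotated starts. The variant CAAAGTCTA stood in the promoters of Cyp2c29, Cyp2c37 and Cyp2c39, 3 of 9 against 0.225% of all promoters. Among the other words searched, TATAAA, the TATA box, was found in 4 member promoters (12.4% of all). The nuclear receptor word AGTTCA was in 4 (11.8% of all), and its relative with the letters AGGTCA in 2 (14.0%). The C/EBP word TTGCNNAA was in 3 (9.56%), the FOXA word TGTTTAC in 2 (3.17%) and the TCF/LEF word CTTTGAT in 2 (3.21%). The word TTATGTAA of DBP and other PAR bZIP factors and the AHR word GCGTG were in none of the 9, against 0.819% and 28.2% of all promoters. These are matches of letters in a window of 250 bases, and the windows are related by sequence, with 98.6% identity between Cyp2c40 and Cyp2c69, 87.8% between Cyp2c37 and Cyp2c50 and 55.7% between Cyp2c29 and Cyp2c70, so the 9 promoters are not independent of each other.

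The libraries held 30504248 to 38770694 counts. Sucnr1, the targeted gene, had 258, 118 and 103 counts in the 3 control libraries and 84, 28 and 5 counts in the 3 knockout libraries, a log2 fold change of −2.23 (SE 0.54) in the library fit, with no overlap between the genotypes and an exact permutation p of 0.1, the smallest that 3 against 3 allows. In edgeR's quasi-likelihood test its unadjusted p was 0.0044 and its Benjamini-Hochberg adjusted p 0.998, and 0 of the 15105 genes reached an adjusted p of 0.05. The hepatocyte identity genes (12 of 12 tested, 6 higher and 6 lower, median log2 fold change 0.0046) were abundant in every library, at 94540 to 134600 CPM (counts scaled to the TMM-normalised library size) in sum. The 4 tested Y-linked genes of the sex chromosome list summed to 96.0 to 115 CPM in all 6 libraries, and Xist was below the filter, so a difference in sex between the libraries was not seen.

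Measured per length, the members differed in level over 3 orders of magnitude. In RPKM, which is CPM divided by the length of the annotated exons in kilobases (mean ± SD over the 6 libraries), Cyp2c29 stood first at 202 ± 87.0. It was followed by Cyp2c70 at 143 ± 39.9, Cyp2c67 at 90.7 ± 40.3 and Cyp2c50 at 81.2 ± 49.1. Next in order were Cyp2c54 at 37.2 ± 22.8, Cyp2c37 at 28.4 ± 24.4, Cyp2c40 at 8.53 ± 3.84 and Cyp2c69 at 4.29 ± 2.05. Cyp2c38 at 1.96 ± 0.84 and Cyp2c39 at 0.159 ± 0.130 were the lowest. Only the last step, from Cyp2c38 to Cyp2c39, separated neighbours whose ranges over the libraries did not overlap. Within a library the steps were steadier: Cyp2c50 lay above Cyp2c54 in 6 of 6 libraries by 1.92 to 2.33 times, and Cyp2c40 above Cyp2c69 in 6 of 6 by 1.83 to 2.19 times. The places of Cyp2c67 and Cyp2c50 could not be told apart, with Cyp2c67 higher in 3 of 6 libraries. When the longest coding transcript replaced the union of exons as length, a choice made after seeing the data, Cyp2c29 was estimated at 346 RPKM and Cyp2c50 at 131, which put Cyp2c50 above Cyp2c67. Cyp2c39, also known to break down retinoic acid, rested on only 3 to 20 counts per library, and its 20 counts in Hep-Sucnr1 KO replicate 4 carried a 95% Poisson interval of 12.2 to 30.9 for counting error alone.

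Together the 10 members took 0.118%, 0.172% and 0.110% of all counts in the control libraries (replicates 1, 2 and 3). In the knockout libraries (replicates 3, 4 and 5) the shares were 0.137%, 0.259% and 0.0748%. The mean share was 0.133% ± 0.034 (SD, n = 3) in Sucnr1 fl/fl and 0.157% ± 0.093 (n = 3) in Hep-Sucnr1 KO. Both the largest and the smallest share belonged to Hep-Sucnr1 KO libraries, and both came from extraction day 2. Without replicate 4 the difference in mean share turned from 0.024 to −0.027 percentage points.

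The comparison of the genotypes asks whether loss of the succinate receptor in hepatocytes altered these enzymes. No member passed the test: 0 of the 10 reached an adjusted p of 0.05 and 0 an unadjusted p of 0.05 in edgeR's quasi-likelihood test, where the background over all 15105 genes was 0% and 3.73% (1.91% for genes higher in Hep-Sucnr1 KO). DESeq2 also called 0 members at either threshold, against 0.0463% of all genes at its adjusted threshold. In 9 members the fitted value was higher in Hep-Sucnr1 KO (50.5% of all genes were), and the median log2 fold change over the 10 was 0.29 against 0.0030 over all genes tested. This direction rested on 1 library: without Hep-Sucnr1 KO replicate 4, 0 of 10 were higher and the median was −0.44, while 50.2% of all genes tested were then higher. Without Hep-Sucnr1 KO replicate 5, the lowest library in 8 members, 10 of 10 were higher and the median was 0.60. No member kept its 3 Hep-Sucnr1 KO libraries clear of the 3 Sucnr1 fl/fl libraries, against 10.6% of all genes, and the exact permutation p of the members lay between 0.7 and 1. In bulk RNA, fewer cells that express a gene and less of its RNA per cell cannot be told apart.

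**Figure D1:**
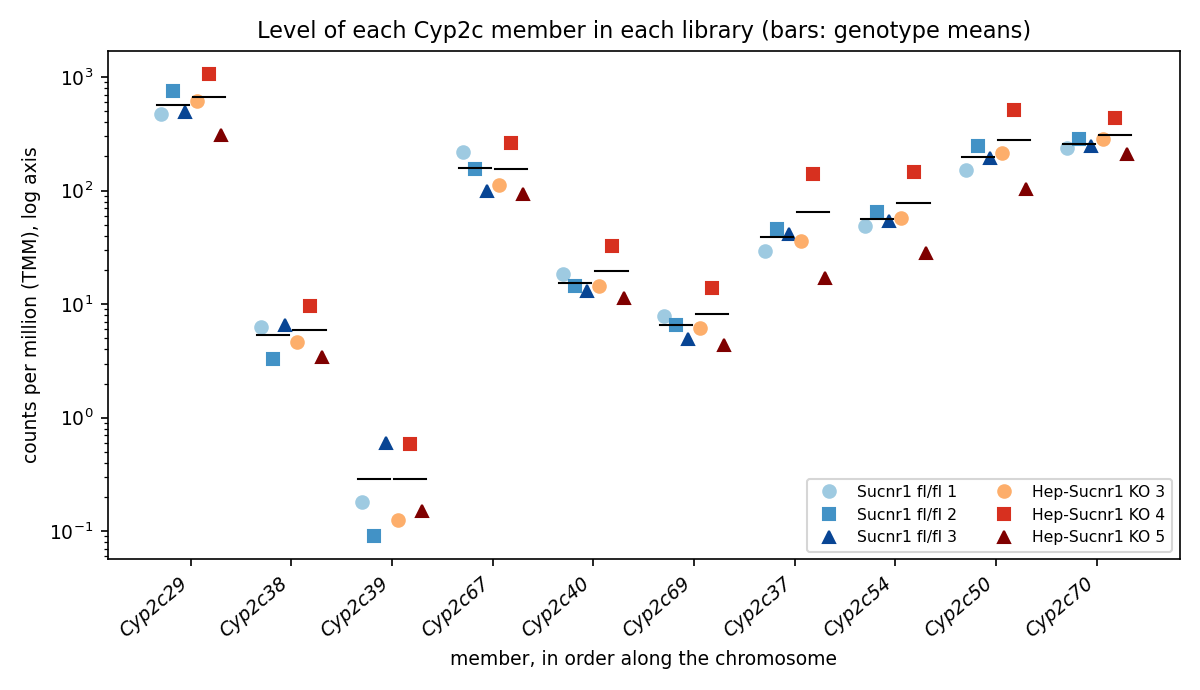
Level of the 10 members in each library, in TMM-normalised CPM on a log axis, with members in their order along the chromosome. Blue symbols are the 3 Sucnr1 fl/fl libraries, orange to dark red symbols the 3 Hep-Sucnr1 KO libraries, and black bars the genotype means. Hep-Sucnr1 KO replicate 4 (red squares) is above every other library in 9 members, and replicate 5 (dark red triangles) is the lowest in 8.

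Cyp2c29, the most abundant member, stood at 468, 757 and 491 CPM in the control libraries (Sucnr1 fl/fl replicates 1, 2 and 3, in that order here and below) and at 615, 1066 and 308 CPM in the knockout libraries (Hep-Sucnr1 KO replicates 3, 4 and 5). The control libraries lay between the last 2 of these, so the genotypes overlapped completely. Its log2 fold change was 0.22 (SE 0.43, 95% interval −0.79 to 1.24, adjusted p 0.998 with edgeR). Its relatives Cyp2c38 and Cyp2c39 were far less abundant and had another order of libraries. Cyp2c38 was measured at 6.24, 3.31 and 6.56 CPM in Sucnr1 fl/fl and 4.62, 9.66 and 3.40 CPM in Hep-Sucnr1 KO, with a log2 fold change of 0.13 (SE 0.45). Its lowest value was that of Sucnr1 fl/fl replicate 2, the control library in which Cyp2c29 was highest. Cyp2c39 had 7, 3 and 18 counts in Sucnr1 fl/fl and 4, 20 and 5 in Hep-Sucnr1 KO, and its log2 fold change of −0.025 (SE 0.79) was the only negative one. It was high in 1 library of each genotype and low in the others.

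Among the group of Cyp2c67, Cyp2c40 and Cyp2c69 the difference between the genotypes was small against the spread as well. Cyp2c67 was measured at 219, 156 and 99.2 CPM in Sucnr1 fl/fl and at 113, 262 and 92.5 CPM in Hep-Sucnr1 KO, a log2 fold change of 0.0040 (SE 0.46) whose sign changed with the scaling. Here Sucnr1 fl/fl replicate 1 came near the level of Hep-Sucnr1 KO replicate 4, and the other 4 libraries lay below both. Cyp2c40 stood at 18.5, 14.4 and 13.0 CPM in Sucnr1 fl/fl and 14.4, 32.6 and 11.3 CPM in Hep-Sucnr1 KO (log2 fold change 0.33, SE 0.40). Cyp2c69 followed the same order of libraries at a lower level, 7.88, 6.62 and 4.98 CPM against 6.11, 14.0 and 4.34 CPM (0.32, SE 0.44). In both genes 1 library, Hep-Sucnr1 KO replicate 4, was above all controls.

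The group of Cyp2c37, Cyp2c54 and Cyp2c50 had the widest spread. Cyp2c37 stood at 29.7, 46.0 and 41.5 CPM in Sucnr1 fl/fl and at 36.3, 140 and 17.0 CPM in Hep-Sucnr1 KO, so that replicate 4 held 8.28 times the level of replicate 5. Its log2 fold change of 0.66 (SE 0.64, 95% interval −0.87 to 2.19) was the highest of the 10. Cyp2c50 was measured at 153, 247 and 193 CPM in Sucnr1 fl/fl and 215, 511 and 103 CPM in Hep-Sucnr1 KO (log2 fold change 0.49, SE 0.50). In all 3 genes of the group replicate 4 was above and replicate 5 below every control library. Cyp2c54 was found at 48.6, 64.8 and 54.4 CPM against 57.2, 146 and 28.3 CPM (0.44, SE 0.51).

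Cyp2c70, which acts in bile acid synthesis rather than on arachidonic acid, was the steadiest member. It stood at 235, 287 and 248 CPM in Sucnr1 fl/fl and 283, 434 and 211 CPM in Hep-Sucnr1 KO, and replicate 4 held 2.05 times the level of replicate 5. The log2 fold change was 0.27 (SE 0.26, 95% interval −0.34 to 0.88). The other bile acid synthesis genes, 12 of 12 tested, were fitted 12 higher and 0 lower, where 50.5% of all genes were higher. Their median was 0.21, with none at an unadjusted p of 0.05 with edgeR. They were led by Cyp8b1 (0.34, SE 0.31), the enzyme that directs synthesis to cholic acid. Without Hep-Sucnr1 KO replicate 4 the split of that list was 6 and 6, with 50.2% of all genes higher. Like the other gene lists here, it was chosen with earlier results of these data known.

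**Figure D2:**
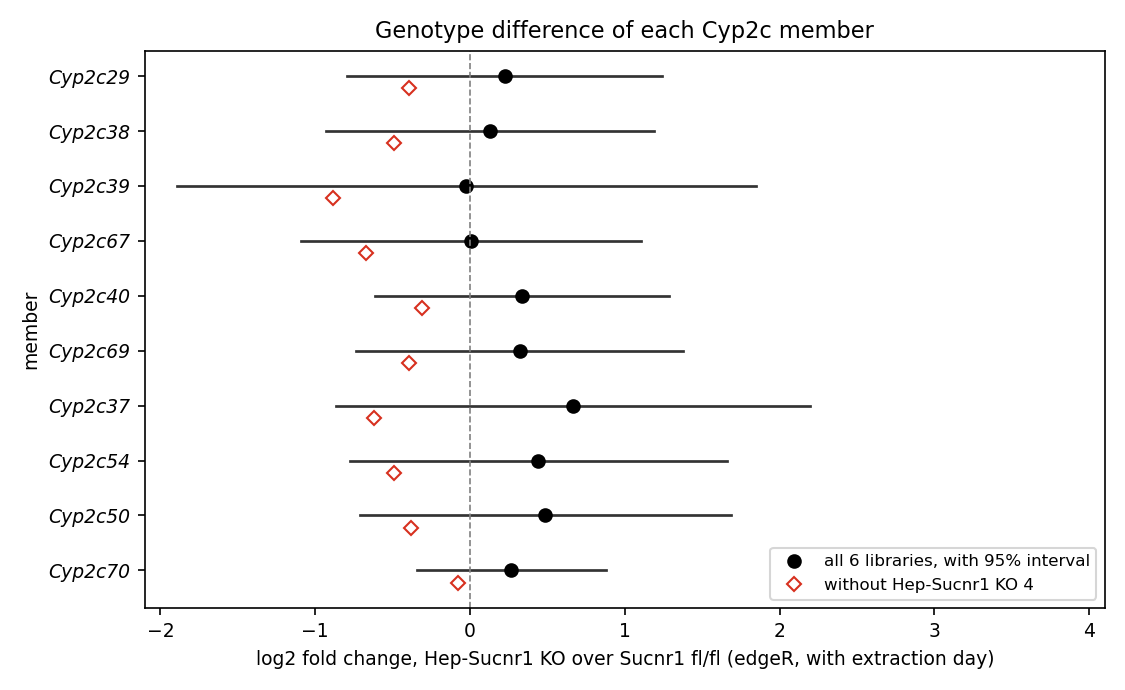
Log2 fold change of each member, Hep-Sucnr1 KO over Sucnr1 fl/fl, from edgeR with extraction day in the model. Black points and lines give the fit of all 6 libraries with its 95% interval, and open red diamonds the fit without Hep-Sucnr1 KO replicate 4. All 10 intervals include 0, and all 10 diamonds lie below 0.

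The 95% intervals show how little these libraries fix the size of a genotype difference in this family. All 10 included 0, and 9 reached a log2 value of 1 or more, with Cyp2c70 as the exception. Standard errors of the members ran from 0.26 to 0.79, against a median of 0.20 over all genes tested. Leaving out Hep-Sucnr1 KO replicate 4 gave log2 fold changes from −0.88 (Cyp2c39) to −0.08 (Cyp2c70). Leaving out replicate 5 instead gave 0.24 (Cyp2c67) to 1.12 (Cyp2c37). In neither fit did a member have an adjusted p under 0.05 with edgeR.

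The spread between the Hep-Sucnr1 KO libraries was wide in these genes. Replicate 4 was the highest of the 6 libraries in 9 of 10 members (19.3% of all genes), replicate 5 the lowest in 8 (16.7% of all genes), and both held in 8 members against 4.06% of all genes. Replicate 3 was within the range of the controls in 10 of 10 members, and it was also the library of its genotype that kept most Sucnr1, at 2.66 CPM or 0.58 of the control mean. The control of the same extraction day, Sucnr1 fl/fl replicate 1, had 6.71 CPM of Sucnr1, and the day 2 controls had 3.55 and 3.40 CPM. The level of a member in replicate 4 was 2.05 to 8.28 times that in replicate 5, with a median of 3.34. Over all 6 libraries the median range of a member was 1.73 on the log2 scale, against 0.66 for all genes tested, and without replicate 4 it was 1.22. The range of Cyp2c37, at 3.04, was exceeded by 2.40% of all genes, and that of Cyp2c70, at 1.04, by 29.0%. In 9 members the SD in CPM was greater in Hep-Sucnr1 KO than in Sucnr1 fl/fl, as in 50.2% of all genes; the members share these libraries and are not independent observations of them.

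**Figure D3:**
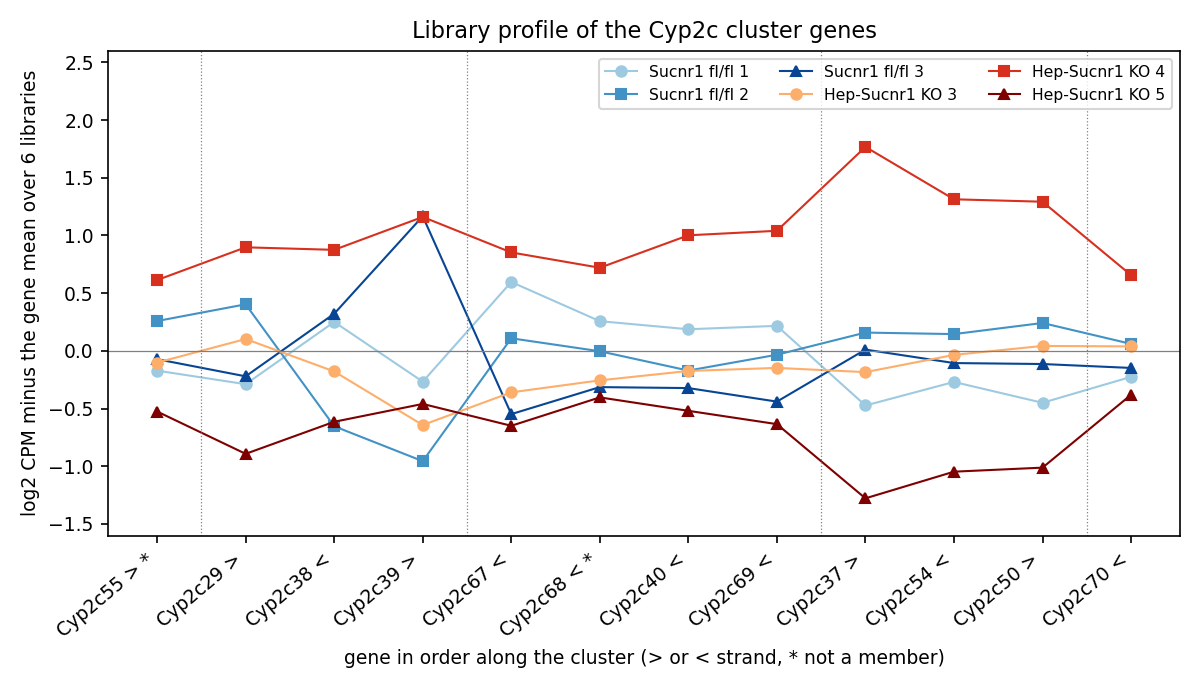
Library profiles along the chromosome 19 cluster: log2 CPM minus the mean of the gene over the 6 libraries, with 1 line per library and genes in genomic order, pseudogenes left out. Dotted lines divide the sequence groups, arrows give the strand, and asterisks mark Cyp2c55 and Cyp2c68, which are not members. Hep-Sucnr1 KO replicate 4 is the highest library for the genes drawn (level with Sucnr1 fl/fl replicate 3 at Cyp2c39), whereas the order of the control libraries differs between genes, only partly along the groups.

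Extraction day, the covariate of the fit, gave no call either. Of the 10 members, 0 had an adjusted p of 0.05 for day 2 against day 1 and 0 an unadjusted one, where the background was 0% and 7.49%. The fitted value was higher on day 2 in 9 members (53.3% of all genes), with a median log2 difference of 0.24 against 0.017 over all genes. This too depended on Hep-Sucnr1 KO replicate 4, a day 2 library: without it 1 of 10 was higher on day 2 and the median was −0.24. The genotype difference passed no test of a difference between the days, with 0 members at an adjusted or unadjusted p of 0.05 for the interaction (0% and 3.69% of all genes). With the day 2 libraries alone 10 members were fitted higher in Hep-Sucnr1 KO at a median of 0.47, in a comparison of 2 libraries with 2 that holds both replicate 4 and replicate 5.

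The order of the control libraries differed between members, partly along the sequence groups. In Cyp2c67, Cyp2c40 and Cyp2c69 Sucnr1 fl/fl replicate 1 was the highest control, at 1.40, 1.28 and 1.19 times replicate 2. In Cyp2c29, Cyp2c37, Cyp2c50, Cyp2c54 and Cyp2c70 replicate 2 was the highest control, and replicate 1 stood at 0.62 to 0.82 times its level. Cyp2c38 and Cyp2c39, of the same sequence group as Cyp2c29, had neither order, with replicate 3 the highest and replicate 2 the lowest control. Profiles were compared by the root mean square (RMS) difference over the 6 libraries between log2 CPM values, each centred on the mean of its gene. Pairs within a sequence group differed by 0.090 to 0.87 with a median of 0.25 (9 pairs), and pairs from different groups by 0.20 to 0.92 with a median of 0.45 (36 pairs). Cyp2c40 with Cyp2c69 (0.090) and Cyp2c50 with Cyp2c54 (0.091) were nearest. High identity did not always go with a like profile: Cyp2c29 and Cyp2c39, 89.5% identical, were 0.87 apart, while Cyp2c29 and Cyp2c50, at 82.8%, were 0.20 apart. Cyp2c39 has the fewest counts of the 10. Without it the medians were 0.24 within (7 pairs) and 0.41 between the groups (29 pairs).

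**Figure D4:**
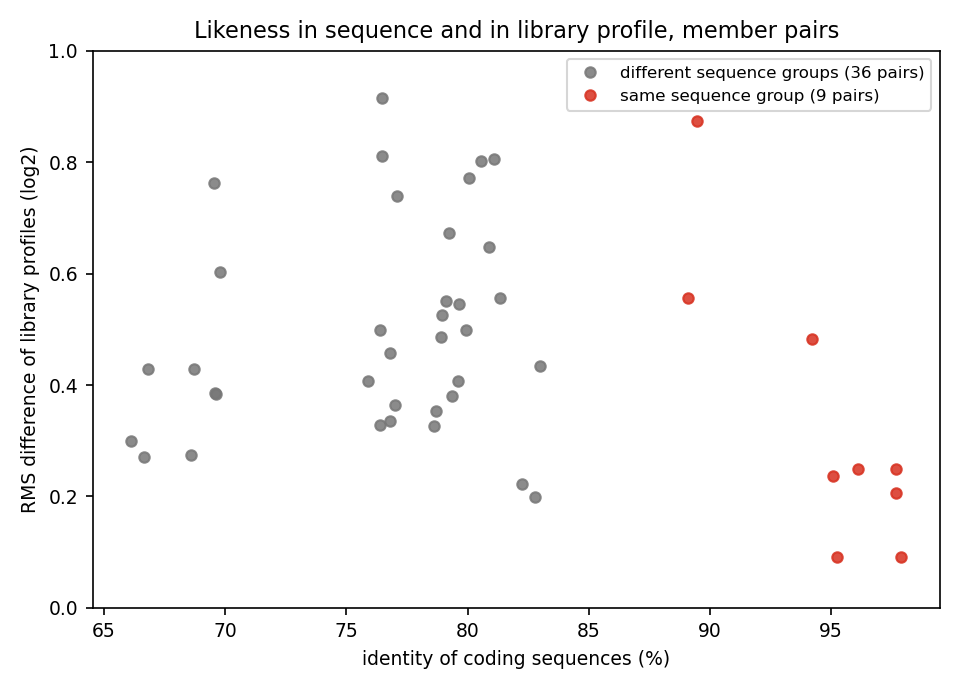
Each point is a pair of members, placed by the identity of their coding sequences in percent and by the RMS difference of their library profiles on the log2 scale. Red points are the 9 pairs within a sequence group and grey points the 36 pairs across groups. The 6 red pairs above 95% identity lie at 0.25 or less, and the highest red point, at 0.87, is Cyp2c29 with Cyp2c39.

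Shared reads bear on those pairs, because a read that matches several paralogs can be lost, split or counted for each of them. Of all stretches of 100 bases in the coding transcript of Cyp2c40, 44.1% were present word for word in another Cyp2c transcript, most often that of Cyp2c69. The share was 36.3% for Cyp2c69, 23.7% for Cyp2c67, 9.40% for Cyp2c50, 7.59% for Cyp2c54 and 4.70% for Cyp2c37. It was 0% for Cyp2c29, Cyp2c38, Cyp2c39 and Cyp2c70. At 150 bases Cyp2c40 still shared 29.1%, Cyp2c69 22.5% and Cyp2c67 13.0%, whereas Cyp2c37, Cyp2c50 and Cyp2c54 shared 3.25% or less. The separate levels of Cyp2c40, Cyp2c69 and Cyp2c67 are therefore uncertain, and their nearness in profile cannot be told apart from shared reads.

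The filter was also passed by 5 other Cyp2c rows, and the 2 intact genes of the cluster among them had the pattern of the members. Cyp2c68, which lies between Cyp2c67 and Cyp2c40 and shares 19.8% of its stretches of 100 bases, stood at 79.8, 66.6 and 53.7 CPM in Sucnr1 fl/fl and 55.9, 110.0 and 50.5 CPM in Hep-Sucnr1 KO (log2 fold change 0.11, SE 0.32). Cyp2c55, at the near end of the cluster, stood at 3.04, 4.12 and 3.26 CPM against 3.20, 5.29 and 2.37 CPM (0.06, SE 0.31). In both, replicate 4 was the highest and replicate 5 the lowest of the 6 libraries. Cyp2c23, another arachidonic acid epoxygenase, lies apart from the cluster on the same chromosome (chr19:44005022-44029208) and did not have it. It was measured at 228, 185 and 229 CPM in Sucnr1 fl/fl and 129, 167 and 203 CPM in Hep-Sucnr1 KO, lowest in replicate 3, with a log2 fold change of −0.38 (SE 0.18, unadjusted p 0.079, adjusted p 0.998 with edgeR). Its replicate 5 fell between the controls. The pseudogene Cyp2c53-ps, whose annotation runs into that of Cyp2c29, had 4.71, 5.80 and 0.69 CPM against 2.91, 1.03 and 0.64 CPM (−1.50, SE 0.72), and Cyp2c52-ps was barely detected at 0.091 to 0.30 CPM (−0.52, SE 0.57). Cyp2c65 was below the filter.

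Of the regulators of Cyp2c transcription 25 of 26 were tested, with 5 higher and 20 lower (50.5% of all genes were higher). Their median log2 fold change was −0.11. With edgeR 1 of them reached an unadjusted p of 0.05, against 3.73% of all genes. Nr1i3, the receptor CAR, had the library pattern of the members: 10.4, 15.8 and 11.5 CPM in Sucnr1 fl/fl and 11.3, 24.0 and 5.59 CPM in Hep-Sucnr1 KO. Replicate 4 was again the highest and replicate 5 the lowest library, as in 7 of the 25 regulators and 4.06% of all genes. Hnf4a, whose word stands in several of the promoters, was at 176, 253 and 182 CPM against 228, 313 and 152 CPM, with the same extremes. The receptor PXR, Nr1i2, had a narrow range, from 29.9 to 35.4 CPM in the controls and 29.5 to 35.0 CPM in Hep-Sucnr1 KO. Foxa2 lay at 7.86 to 13.4 against 7.10 to 12.9 CPM and Cebpa, again with the extremes of the members, at 299 to 355 against 232 to 366 CPM. The largest difference of the list was that of Dbp, a clock-driven activator of P450 genes, at −0.98 (SE 0.26, adjusted p 0.998 with edgeR). Outside the cluster the targets of CAR and PXR (17 of 20 tested) were 11 higher and 6 lower with a median of 0.10. The extremes of the members held in 2 of these 17, against 4.06% of all genes. Cyp2b10, the classical CAR target, had the largest difference, −0.78 (SE 0.70). It stood at 5.10, 2.89 and 1.22 CPM in Sucnr1 fl/fl and 1.20, 0.62 and 3.10 CPM in Hep-Sucnr1 KO, lowest in replicate 4.

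Por, the main electron donor, stood at 506, 505 and 447 CPM in Sucnr1 fl/fl and 549, 390.0 and 382 CPM in Hep-Sucnr1 KO. Replicate 4, the highest library for 9 of the 10 Cyp2c members, was thus among the lowest for their electron donor. Cyb5a, the second donor, had the extremes of the members, at 384, 405 and 390.1 CPM against 439, 469 and 364 CPM. Of the 16 electron donor and haem synthesis genes 12 were higher and 4 lower (median 0.15), where 50.5% of all genes were higher. Blvrb had the largest difference of these (0.29, SE 0.15). Ephx1 lay at 300 to 313 CPM in Sucnr1 fl/fl and 252 to 283 CPM in Hep-Sucnr1 KO, without overlap (10.6% of all genes), and Ephx2 at 333 to 401 against 337 to 420 CPM. The other epoxygenases, omega-hydroxylases and epoxide hydrolases (16 of 18 tested) were 6 higher and 10 lower at a median of −0.04, with Cyp4a14, an omega-hydroxylase, farthest at −1.51 (SE 0.73).

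The list medians of liver zonation genes moved with the members from library to library, though not every gene did. Replicate 4 was the highest and replicate 5 the lowest library in 9 of the 17 pericentral landmarks, against 4.06% of all genes. The pericentral landmarks outside Cyp2c (17 of 17 tested) had median centred log2 levels of −0.27, 0.07 and −0.19 in Sucnr1 fl/fl and 0.12, 1.17 and −0.70 in Hep-Sucnr1 KO. For the Cyp2c members the same medians were −0.25, 0.08 and −0.13, then −0.16, 1.02 and −0.64. The periportal landmarks (17 of 17 tested) went the other way, at 0.21, −0.28 and 0.28, then −0.04, −0.52 and 0.37. Glul, which marks the hepatocytes next to the central vein, was at 1002 CPM in replicate 4, with 439 to 646 CPM in the controls. Its lowest library was Hep-Sucnr1 KO replicate 3, at 398 CPM, and replicate 5 had 423 CPM. Between genotypes the pericentral list was 16 higher and 1 lower (median 0.42, largest Slc1a2 at 1.56, SE 0.67). The periportal list was 3 higher and 14 lower (median −0.08, largest Hsd17b6 at −0.99, SE 0.33), where 50.5% of all genes were higher. Without Hep-Sucnr1 KO replicate 4 the pericentral list was 3 higher and 14 lower at a median of −0.34. The periportal list was then 13 higher and 4 lower at 0.06, with 50.2% of all genes higher. Both lists were chosen with earlier results of these data known, and the part of zonation in the levels of the members was not tested.

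**Figure D5:**
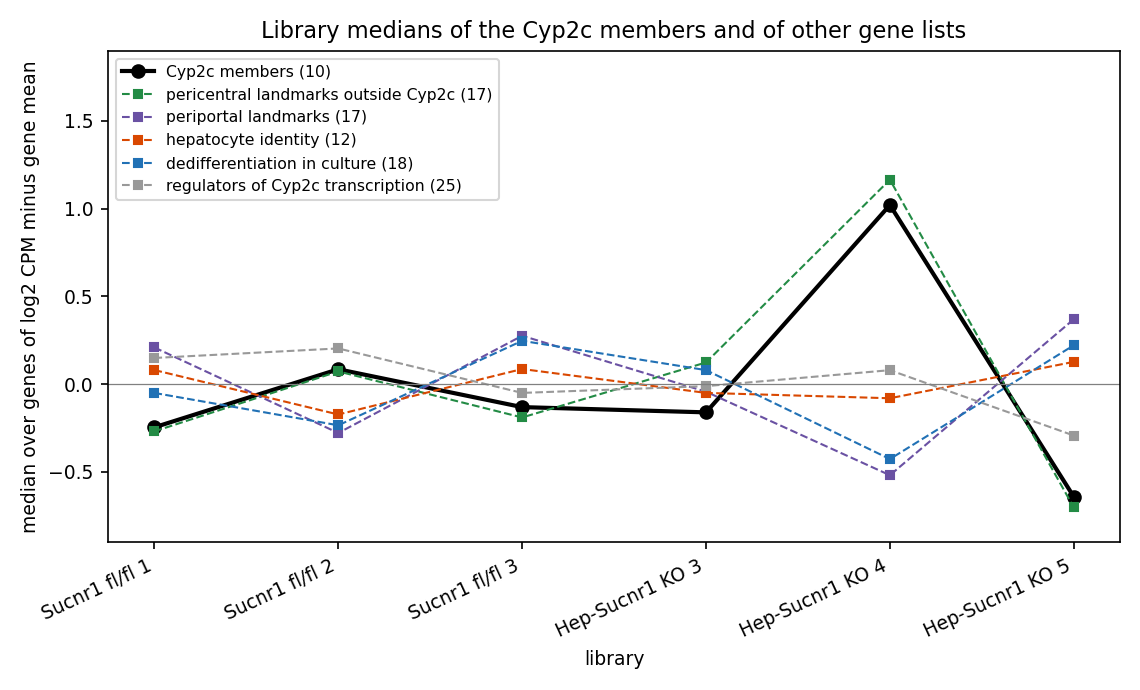
Library medians of centred log2 levels (log2 CPM minus the mean of the gene over 6 libraries) for the Cyp2c members (thick black line) and 5 gene lists (dashed), with the number of genes tested in brackets. The members and the pericentral landmarks peak together in Hep-Sucnr1 KO replicate 4, at 1.02 and 1.17, and are lowest in replicate 5, at −0.64 and −0.70, whereas hepatocyte identity stays between −0.17 and 0.13.

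Hep-Sucnr1 KO replicate 4 also had the lowest summed level of genes of dedifferentiation in culture, and replicate 5 did not stand apart in it. These genes (18 of 18 tested, 8 higher and 10 lower, median −0.08) summed to 9711 to 12240 CPM in Sucnr1 fl/fl. Hep-Sucnr1 KO replicates 3 and 5 had 11610 and 11410 CPM and replicate 4 had 7708 CPM, sums that the most abundant genes dominate. Replicate 4 was the lowest library for 9 of the 18 genes, against 18.4% of all genes. The largest difference of the list was that of Ccn2 (−1.26, SE 0.74). The acute phase response was higher in Hep-Sucnr1 KO in 19 of 19 genes tested (50.5% of all genes were). That list was chosen with earlier results of these data known. With edgeR 9 of its genes reached an unadjusted p of 0.05 (1.91% of all genes in that direction) and 0 an adjusted one. Their median was 0.41, with Saa3 the largest at 0.82 (SE 0.36). The median level of the list was similar in Hep-Sucnr1 KO replicates 3, 4 and 5 (0.25, 0.15 and 0.21 centred log2), unlike that of the members. Markers of other liver cells were low beside the hepatocyte sums, and their splits stand beside 50.5% of all genes higher in Hep-Sucnr1 KO. Kupffer cell markers (11 tested, 0 higher and 11 lower) summed to 56.5 to 179 CPM in Sucnr1 fl/fl and 37.4 to 145 CPM in Hep-Sucnr1 KO, largest Marco (−1.18). Sinusoidal endothelial markers (9 tested, 1 higher and 8 lower) summed to 54.0 to 91.5 and 33.4 to 63.2 CPM, largest Cdh5 (−0.63). Stellate cell markers (6 of 10 tested, 1 higher and 5 lower) summed to 9.69 to 34.4 and 7.92 to 14.0 CPM, largest Reln (−1.20). Cholangiocyte markers (7 of 8 tested, 4 higher and 3 lower) summed to 351 to 513 and 427 to 651 CPM, largest Cftr (−1.54). Nearly all of these sums was Spp1 (266 to 400 and 333 to 526 CPM) and Sox9 (83.2 to 120 and 84.8 to 122 CPM). Sox9 is also on the dedifferentiation list. The other cholangiocyte markers tested were at 2.61 CPM or less, so these sums do not measure the amount of cholangiocytes. In Hep-Sucnr1 KO replicates 4 and 5, the extremes of the Cyp2c levels, the sums were 145 and 125 CPM for Kupffer cells, 63.2 and 50.5 CPM for endothelial cells, 7.92 and 14.0 CPM for stellate cells, and 451 and 427 CPM for cholangiocytes, whose median centred log2 levels were −0.85 and 0.40. Male-biased liver genes (15 tested) were 10 higher and 5 lower (median 0.12, largest Cyp2u1 at −0.69), and of 17 female-biased genes 5 were tested, 2 higher and 3 lower (largest Fmo2 at −0.89). The part of culture state and of other cells in the levels of the members was not tested.

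Outside the family, 5 genes had the profile closest to the median profile of the members. They were Rgn, the calcium-binding protein regucalcin and itself on the pericentral list (RMS difference 0.073 log2), Slco1b2, a hepatic uptake carrier of bile acids and drugs (0.085), Adh6-ps1 (0.096), Ncald (0.10) and Gm48633 (0.14). The members themselves were 0.20 to 0.71 from that median, with Cyp2c70 and Cyp2c29 closest. Rgn stood at 307, 349 and 302 CPM in Sucnr1 fl/fl and 334, 672 and 219 CPM in Hep-Sucnr1 KO. Over 6 libraries such a search finds any gene that is high in replicate 4 and low in replicate 5, and when replicate 4 was left out, an alternative added after seeing the data, 1 of the 5 (Rgn) was still among the 5 nearest.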

How the data were processed

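The authors trimmed the reads with Trim Galore 0.6.7, aligned them to GRCm38 with STAR 2.7.10a and counted read pairs per gene with featureCounts, and deposited raw counts of 25184 genes in 6 libraries, not normalized. Read pairs were counted as paired and by strand; how those matching several paralogs were treated is not spelled out, and they may have been lost, split or counted for each. Here genes with a mean DESeq2-normalized count above 5 were kept (15105). Genotype and extraction day were tested in 1 model with edgeR 4.0.16 (R 4.3.3) by the quasi-likelihood test with TMM scaling and Benjamini-Hochberg adjustment over all genes. The fit was tested on simulated data. DESeq2 1.42.0 was an alternative. Log2 CPM used a prior count of 2. For single values a two-sided exact permutation test over the libraries was used. Depth was 30504248 to 38770694 counts, and the common biological coefficient of variation was 0.206. Coordinates and lengths came from the GENCODE annotation of GRCm38, promoters from RefSeq. Tables were made with Python 3.11.15 and pandas 2.3.3.

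The members and 17 gene lists were chosen with earlier results of these data known. Besides the members, the genes named are the other Cyp2c genes past the filter, Sucnr1, a fixed set of regulators, electron donors and epoxide hydrolases, the gene with the largest difference in each list, and the 5 genes nearest to the members in profile. Glul, Spp1 and Sox9 were named in addition, after their values were seen. One regulator and its promoter word are not reported here. Reads were not analysed here.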

Additional observations from a re-analysis of the deposited data

How the results depend on the processing

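No member reached an adjusted p of 0.05 for genotype or for day under any of the settings run, with each library left out included, and the lowest adjusted p of a member over the edgeR settings was 0.67. The number of members higher in Hep-Sucnr1 KO was 8 to 10 under the other settings, and with 1 library left out it ran from 0 to 10, with the 0 without Hep-Sucnr1 KO replicate 4. The number higher on day 2 ran from 1 to 10. The median log2 fold change lay between −0.44, with Hep-Sucnr1 KO replicate 4 left out, and 0.60, with replicate 5 left out, the median day difference from −0.24 to 0.60, and the difference in library share from −0.027 to 0.065 percentage points. With the library index series of the labels as a further term the median was 0.64, and Cyp2c38 (−0.19), Cyp2c53-ps (0.67), Cyp2b10 (0.41) and Cyp4a14 (0.050) changed sign. Sucnr1 fl/fl replicate 3 is the only control in the series of the Hep-Sucnr1 KO libraries. The genotype values of that fit therefore rest largely on this 1 control library. Cyp2c67, at 0.0040 in the text, was −0.017 with DESeq2, −0.018 with its size factors, −0.037 with library size alone, −0.019 with no filter, −0.012 with filterByExpr and −0.023 without extraction day. Cyp2c39 was 0.043 without extraction day and 0.14 with the day 2 libraries alone. DESeq2 called 2 genes of the fixed lists, which were chosen with earlier results known, and 7 of all 15105 genes (0.0463%), against 0 with edgeR. The cause of these changes was not tested. With 1 library left out, the log2 fold changes ran from −0.39 to 0.61 for Cyp2c29, −0.62 to 1.12 for Cyp2c37, −0.49 to 0.41 for Cyp2c38, −0.88 to 0.87 for Cyp2c39, −0.31 to 0.68 for Cyp2c40, −0.38 to 0.91 for Cyp2c50, −0.49 to 0.85 for Cyp2c54, −0.33 to 0.33 for Cyp2c55, −0.67 to 0.47 for Cyp2c67, −0.36 to 0.42 for Cyp2c68, −0.40 to 0.66 for Cyp2c69 and −0.077 to 0.51 for Cyp2c70. The members kept 8 of their 10 places in the order per length with the longest or the longest coding transcript as length, and 10 with library size alone. No paired analysis was possible because the genotypes share a single replicate number, on different extraction days. Counts were lowest for Cyp2c39, at 3 to 20 per library.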
